A study of Mus musculus with 26 samples.

Results

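The Hox genes were read as a set in 26 mouse skin cell lines, to ask which members each line transcribed and whether lines differed by origin, cross or spindle state. Members were all genes with a symbol of Hoxa, Hoxb, Hoxc or Hoxd and a number, and each gene was represented by its single-gene probe set with the highest mean. The mouse annotation lists 39 such genes, and 33 of the 18193 genes measured were members, with 9 in cluster A, 9 in B, 7 in C and 8 in D. The others had no single-gene probe set, among them Hoxb8 and Hoxd4, whose probe sets are shared with a neighbour.

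Each line was measured on 1 Affymetrix M430 2.0 array, from cells growing in serum. The groups compared were 7 spindle carcinoma lines (A5, CarB, CarC, D3, D3DP, H11 and MSN2), 12 non-spindle carcinoma lines and 2 immortalised keratinocyte lines (C5N and NK). Spindle carcinoma is a squamous carcinoma with elongated, fibroblast-like cells. Of the non-spindle lines, 6 came from tumours of Spretus-cross mice, with Spretus/CBA for MSCP5, MSC12, MSCP1, MSC11B and MSC7A and Spretus/NIH for SN161. For the other 6 (PDV, PDVC57, B9, B9ras, B9rassmad and E4) no cross is stated. NK came from a mouse with a null allele, per its label. P6 was the only papilloma line. In no group were 2945CA and MSCb1, whose spindle state is not stated, B9Smad, whose labels conflict, and a keratinocyte line with conflicting labels. MSCb1 came from a Spretus/CBA cross. The labels give no body site, mouse age or treatment for any line, and a line is a single culture here, so the p-values rest on how far lines of a group differ and not on repeat cultures.

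Hox genes encode homeodomain transcription factors that lie in 4 clusters on separate chromosomes. Within a cluster the order of the genes follows the order in which they are used along the body axis, with low numbers towards the head and high numbers towards the tail and the ends of the limbs. Genes with the same number in different clusters are paralogues. Cultured skin cells are known to keep part of the Hox pattern of the body site they came from, which is why the set is read as a code of position.

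Before the Hox values were compared, the lines were set against each other and against cell type markers. Over all 12641 genes tested, with each gene centred, PDV, B9ras and MSCP1 correlated at 0.83 to 0.90 although their names share no stem, and A5 and H11 correlated at 0.85, so these arrays may not be independent. Of 8 keratinocyte markers, 1 to 4 were above the array median in the spindle lines, 0 to 8 in the non-spindle lines and 8 in both keratinocyte lines. MSC12 and MSC7A, labelled non-spindle, had 0 of the 8 above the median, and MSC11B had 5 with a mean of 5.61. Of 9 fibroblast markers, 5 to 8 were above it in spindle lines, 1 to 8 in non-spindle lines and 3 to 4 in keratinocyte lines. The means of the endothelial markers lay at 3.97 to 4.17 in spindle lines, 3.97 to 4.42 in non-spindle lines and 4.11 to 4.24 in keratinocyte lines. Leukocyte means lay at 4.65 to 4.74, 4.68 to 5.09 and 4.67 to 4.71 in the same groups, and melanocyte means at 4.07 to 4.28, 3.93 to 4.37 and 4.09 to 4.12. An array reads a whole culture, so fewer cells of a type and less RNA per cell cannot be told apart.

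A gene was called above when its log2 value exceeded the median of all probe sets of its array, which lay between 5.04 and 5.15. This level is a convention, not a detection limit, and values of different probe sets are not comparable with each other. Of the 33 Hox genes, 8 were above it in all 26 lines, 24.2% against 49.3% of all genes measured. They were Hoxa3, Hoxa5, Hoxa7, Hoxb4, Hoxc6, Hoxc9, Hoxd8 and Hoxd9. Another 8 were above this level in no line, 24.2% against 27.7% of all genes measured. They were Hoxa13, Hoxb1, Hoxb7, Hoxd1, Hoxd3, Hoxd10, Hoxd11 and Hoxd12. Hoxa4 was above it only in A5 (5.11, against an array median of 5.07) and Hoxd13 only in D3 (5.10, against 5.04). The remaining 15 genes, 45.5% of the set, were above it in 2 to 25 lines, against 20.2% of all genes measured. Cluster D was the lowest in members above the median, with Hoxd8 and Hoxd9 alone above it in more than 1 line.

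**Figure D1:**
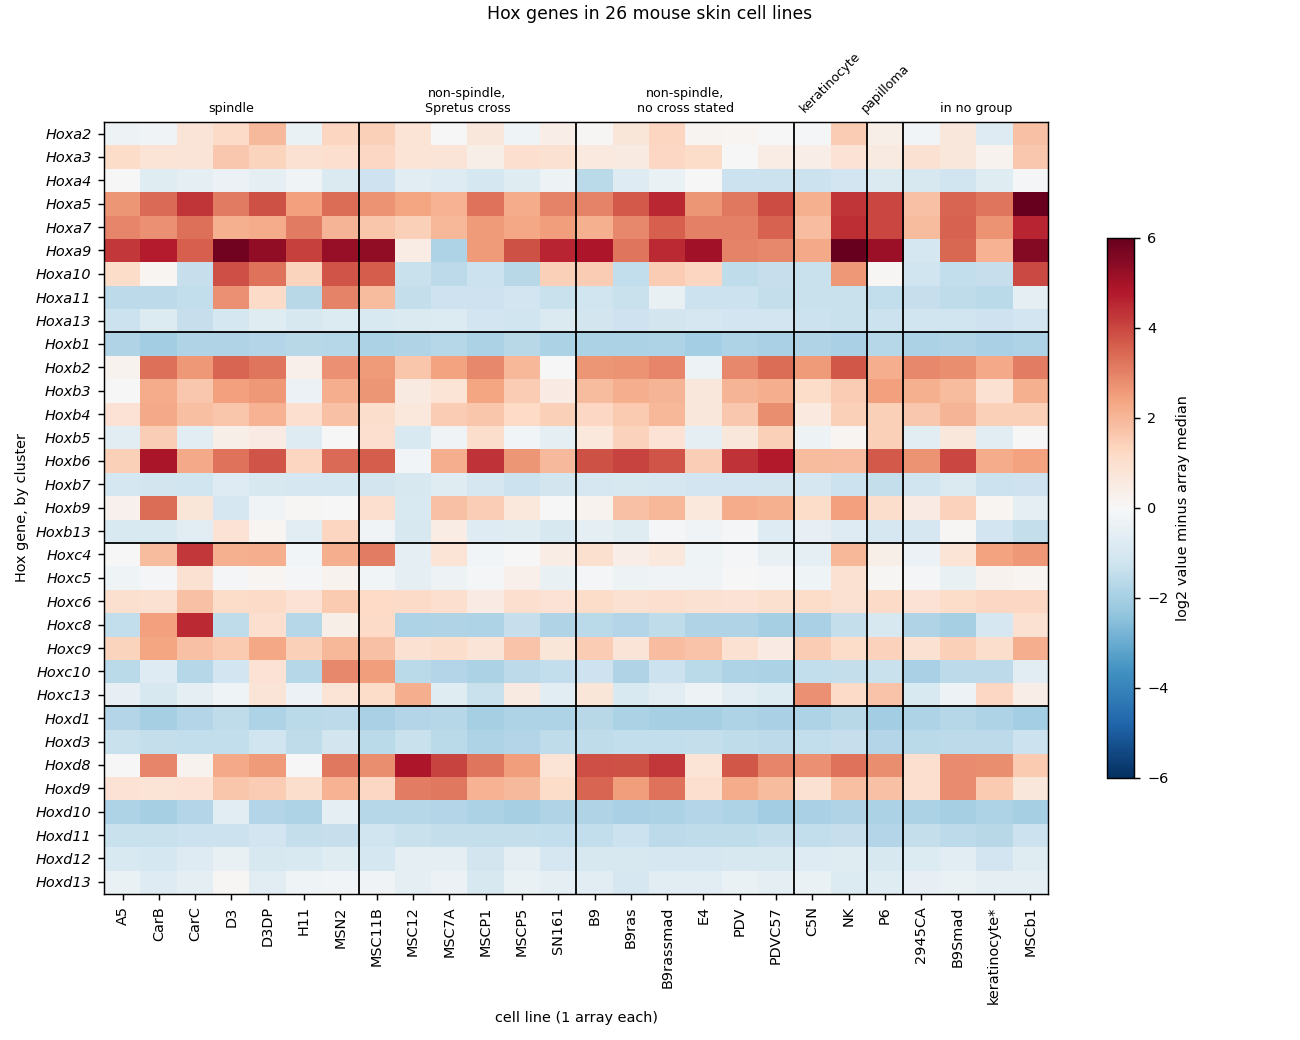
Heat map of 33 Hox genes (rows, by cluster) in 26 lines (columns, 1 array each), as log2 value minus the array median, red above and blue below. The column keratinocyte* is the keratinocyte line with conflicting labels, and the D cluster is red only at Hoxd8 and Hoxd9 in nearly every line.

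The number of Hox genes above the median was 13 to 22 in spindle lines (median 17), 13 to 21 in non-spindle lines (median 15.5), and 14 in C5N and 19 in NK. D3DP and MSN2 had the most, with 22 each, and MSC11B followed with 21. The lowest count was 12, in 2945CA. The groups overlapped almost completely, and the Spretus-cross lines (13 to 21, median 15.5) covered the range of the other non-spindle lines (14 to 18, median 15.5). With the 75th percentile of the array as the level, the counts were 2 to 9 in Spretus-cross lines (median 3) and 3 to 7 in the others (median 6.5). By cluster, spindle lines had 2 to 7 members of cluster C above the median, non-spindle lines 2 to 6 and keratinocyte lines 3 and 5, so that cluster C varied more in number than cluster D, with 2 or 3 members everywhere.

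In cluster A, Hoxa3, Hoxa5 and Hoxa7 were above the median in all 26 lines, whereas Hoxa2 was in 19 and Hoxa4 in 1. Hoxa5, which acts in lung and neck development, was at 7.56 to 9.34 in spindle lines (median 8.38), at 7.16 to 9.61 in non-spindle lines (median 8.09), and at 7.23 in C5N and 9.37 in NK. Hoxa3, known for its part in the pharyngeal arches, spanned 5.16 to 6.75 over all lines, and Hoxa7, a gene of the thoracic axis, spanned 6.51 to 9.72. Hoxa2, which patterns the hindbrain and the arch that forms the outer ear, spanned 4.36 to 7.01. For each of these genes the values of the groups overlapped.

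The posterior genes of cluster A divided the lines. Hoxa9, a gene of the posterior axis that is also active in blood progenitors, was at 8.65 to 10.84 in spindle lines (median 9.82), at 3.25 to 10.42 in non-spindle lines (median 8.64), and at 7.37 in C5N and 11.30 in NK. It was below the median only in MSC7A (3.25) and in 2945CA (4.06), and next lowest in MSC12 (5.50). The second probe set of Hoxa9 was also lowest in MSC7A (6.07), but at 6.23 in MSC12 and 6.44 in 2945CA it stood close to C5N (6.22). MSC7A and MSC12 also lacked all keratinocyte markers above the median, and the part of this in the Hoxa9 value was not tested.

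Hoxa10, a gene of the lumbar axis and the uterus, was at 8.92 in D3, 8.82 in MSN2, 8.32 in D3DP, 6.42 in H11, 6.16 in A5, 5.23 in CarB and 3.67 in CarC. Among non-spindle lines it spanned 3.43 to 8.70 (median 3.80), with the highest value in MSC11B, and the keratinocyte lines were at 3.73 in C5N and 7.67 in NK. Every group thus held lines on both sides of the array median. Hoxa11, which shapes the forearm and lower leg and the uterus, was above the median in only 4 lines. It stood at 8.04 in MSN2, 7.76 in D3 and 6.23 in D3DP, and at 3.43 to 3.60 in the other spindle lines. MSC11B reached 6.98, while the other 11 non-spindle lines were at 3.63 to 4.63 and the keratinocyte lines at 3.75 in C5N and 3.72 in NK. The high lines were 3 spindle lines and 1 non-spindle Spretus-cross line.

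Most of cluster B was shared, with a group of low lines that crossed the labels. Hoxb2, an anterior gene of the hindbrain, was at 5.27 to 8.54 in spindle lines (median 7.79), at 4.73 to 8.50 in non-spindle lines (median 7.72), and at 7.62 in C5N and 8.80 in NK. The 4 lowest lines were E4 (4.73), SN161 (5.11), A5 (5.27) and H11 (5.40), and the next was MSC12 (6.72). Hoxb3, its neighbour, was likewise low in H11 (4.73), A5 (5.09) and SN161 (5.59), with MSC12 (5.61) and E4 (5.75) beside them. Hoxb4, known for expanding blood stem cells, stayed above the median everywhere in the probe set used, at 5.65 to 7.91.

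The middle of cluster B showed the widest values of that cluster. Hoxb6, a gene of the trunk and the early limb bud, was at 6.36 to 10.01 in spindle lines (median 8.30), at 4.88 to 9.89 in non-spindle lines (median 8.80), and at 6.98 in C5N and 6.90 in NK. CarB (10.01) and PDVC57 (9.89) were highest and MSC12 (4.88) was the only line below the median. Hoxb5, the next gene, was above the median in 15 lines, with CarB (6.59) and P6 (6.58) highest and MSC12 (4.13) lowest. Hoxb9, a posterior thoracic gene, was at 8.50 in CarB and at 4.04 to 5.79 in the other 6 spindle lines, against 4.14 to 7.33 in non-spindle lines and 6.18 in C5N and 7.55 in NK. Hoxb13, the tail end of the cluster and a gene of the prostate and tail, was above the median in 5 lines, MSN2 (6.32), D3 (5.90), MSC7A (5.53), D3DP (5.20) and B9Smad (5.14). The probe set shared by Hoxb8 and Hoxb7 was above the median in 9 lines, from 3.92 to 6.20 in B9rassmad, and the probe set of Hoxb7 alone in none.

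Cluster C held genes that were high in a few lines and low in most. Hoxc8, a gene of the mid trunk, was at 9.55 in CarC, 7.60 in CarB, 6.06 in D3DP, 5.42 in MSN2, 3.61 in A5, 3.52 in D3 and 3.40 in H11. Among non-spindle lines MSC11B was at 6.22 and the other 11 at 3.16 to 3.74, and the keratinocyte lines were at 3.15 in C5N and 3.66 in NK. The range over all lines was 6.44 log2 units, and 1 further line, MSCb1 (6.05), was above the median. Hoxc4, an anterior member, was at 4.92 to 9.32 in spindle lines (median 7.17), at 4.47 to 8.15 in non-spindle lines (median 5.31), and at 4.56 in C5N and 7.04 in NK. CarC held the highest value of Hoxc4 too, and A5 and H11 were the lowest spindle lines.

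Hoxc10, a gene of the lumbar and hindlimb level, was above the median in 3 lines alone. It was at 7.92 in MSN2, 7.61 in MSC11B and 5.95 in D3DP, and no other line exceeded 4.44. Those 3 lines were also high in Hoxa11 and Hoxa10, whereas D3, high in both of these, was at 3.90 for Hoxc10. Hoxc9, a thoracic gene, was above the median in every line, at 6.41 to 7.51 in spindle lines (median 6.83), at 5.62 to 6.93 in non-spindle lines (median 6.10), and at 6.62 in C5N and 6.17 in NK.

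Hoxc13, which hair follicles need to form hair shafts, was the member with the clearest keratinocyte values. It was at 4.17 to 5.88 in spindle lines (median 4.72), at 3.81 to 7.23 in non-spindle lines (median 4.48), and at 7.80 in C5N and 6.24 in NK. No spindle line reached the keratinocyte lines, and of the non-spindle lines only MSC12 (7.23) did. P6 (6.86) and the keratinocyte line with conflicting labels (6.38) also lay above 6.24, and MSC11B (6.21) lay just under it. MSC12 had none of the 8 keratinocyte markers above the median, and neither had MSC7A, whose Hoxc13 was at 4.34.

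Cluster D was reduced to a pair of neighbours. Hoxd8, a gene of the trunk and proximal limb, was at 5.10 to 8.20 in spindle lines (median 7.32), at 5.88 to 9.90 in non-spindle lines (median 8.61), and at 7.81 in C5N and 8.31 in NK. The lowest lines were A5 (5.10), H11 (5.13), CarC (5.26), E4 (5.88) and SN161 (5.91). Hoxd9 was at 5.93 to 7.12 in spindle lines (median 6.13), at 6.04 to 8.63 in non-spindle lines (median 7.30), and at 6.01 in C5N and 6.89 in NK. The other 6 members of cluster D, among them Hoxd13, a gene of digits and external genitalia, spanned 3.06 to 5.10 over all lines. The most distant of these values from the rest were those of Hoxd10 in MSN2 (4.51) and D3 (4.36), 2 of the lines high in Hoxa11, against at most 3.36 elsewhere.

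**Figure D2:**
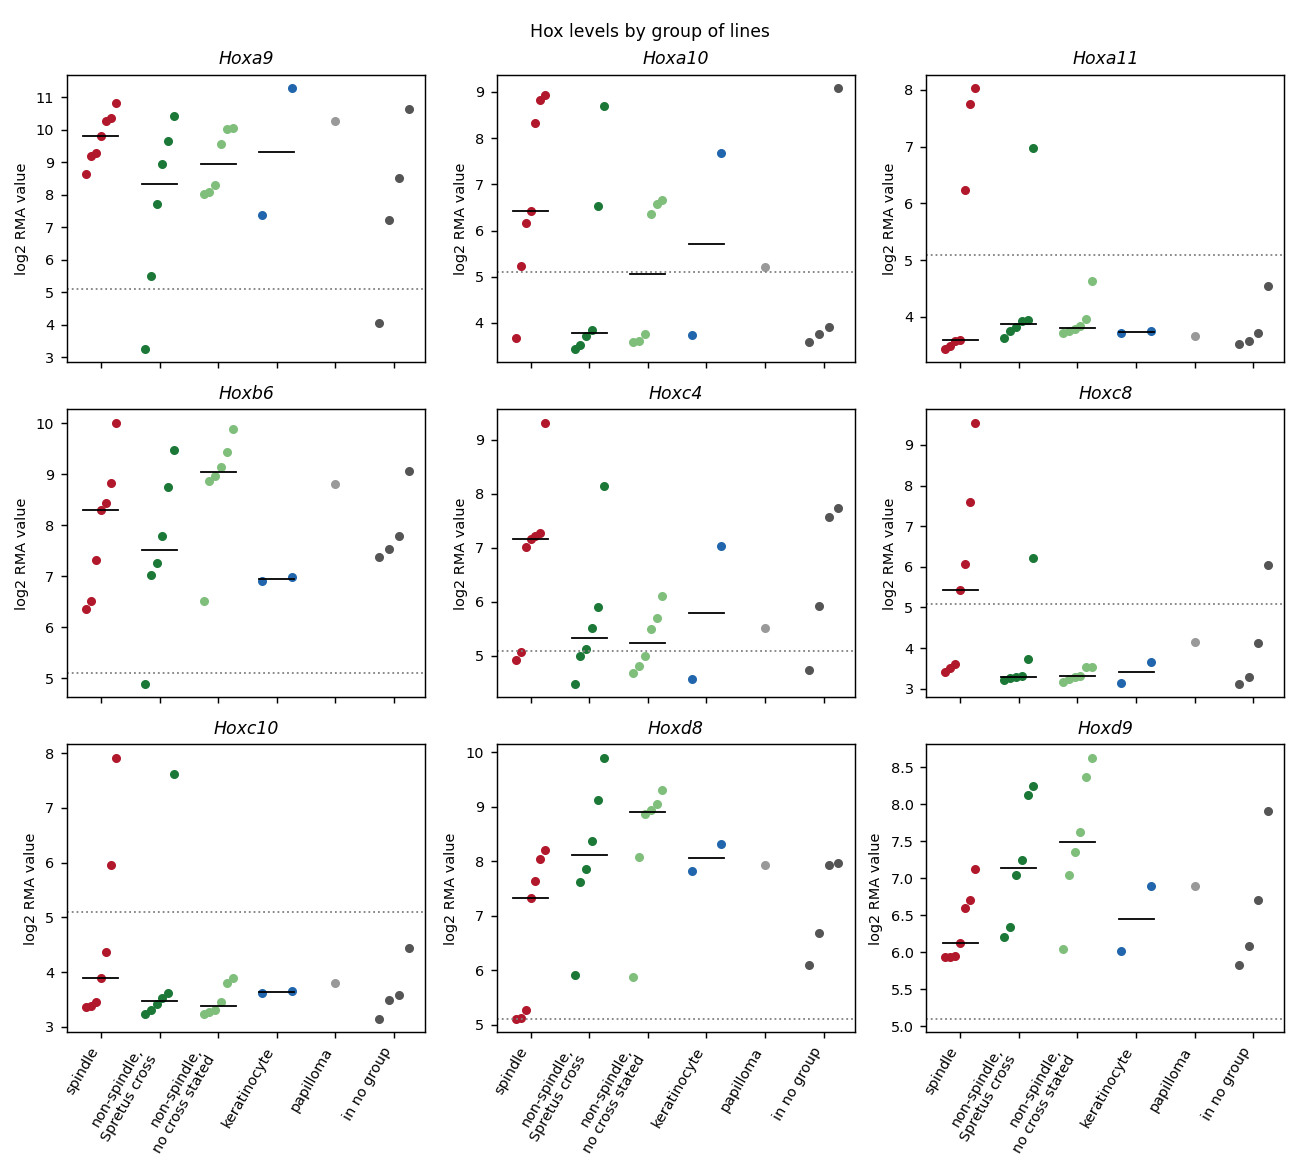
Log2 RMA values of 9 Hox genes in each line by group, with a bar at the group median and a dotted line at the mean array median. Hoxa11, Hoxc8 and Hoxc10 are high in a few lines of the spindle and Spretus-cross groups, and the median of Hoxd9 is 6.13 in spindle lines.

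The promoter windows of the members that carried these contrasts, Hoxa11, which was above the median in 4 lines, and the pair Hoxd8 and Hoxd9, whose values correlated over the lines, are shown with each CpG in capitals, since CpG-rich promoters are where Polycomb complexes, which silence Hox genes, are known to bind. They are RefSeq windows on GRCm38.p6, from 250 bases before to 50 after the start, read 5′ to 3′ along the gene. The Hoxa11 window is chr6:52245761-52246060 on the minus strand, that of Hoxd8 is chr2:74704365-74704664 and that of Hoxd9 chr2:74697513-74697812, both on the plus strand.
Hoxa11: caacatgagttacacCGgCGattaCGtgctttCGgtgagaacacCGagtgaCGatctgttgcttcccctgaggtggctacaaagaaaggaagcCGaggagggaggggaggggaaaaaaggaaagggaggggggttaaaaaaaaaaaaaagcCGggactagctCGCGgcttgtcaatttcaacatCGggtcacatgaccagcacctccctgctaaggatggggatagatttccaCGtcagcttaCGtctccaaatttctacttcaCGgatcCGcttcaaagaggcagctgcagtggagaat
Hoxd8: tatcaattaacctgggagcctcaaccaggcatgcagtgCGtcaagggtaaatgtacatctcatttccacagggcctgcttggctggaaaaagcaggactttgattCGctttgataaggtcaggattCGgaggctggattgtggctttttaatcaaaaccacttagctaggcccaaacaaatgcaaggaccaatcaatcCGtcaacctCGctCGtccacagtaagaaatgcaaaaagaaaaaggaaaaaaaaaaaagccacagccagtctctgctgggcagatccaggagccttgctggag
Hoxd9: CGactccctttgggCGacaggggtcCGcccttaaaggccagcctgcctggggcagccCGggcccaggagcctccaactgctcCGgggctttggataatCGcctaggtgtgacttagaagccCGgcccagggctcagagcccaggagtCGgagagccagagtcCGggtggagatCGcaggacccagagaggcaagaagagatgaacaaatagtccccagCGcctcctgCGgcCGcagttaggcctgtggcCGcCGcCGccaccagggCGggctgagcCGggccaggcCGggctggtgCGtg
The 3 windows held 15, 6 and 20 CpG, with 51.0%, 46.7% and 68.3% G or C. The neighbours Hoxd8 and Hoxd9 therefore differed in both measures. In all, 19 of the measured Hox genes had 21 windows in the table, with a median of 15 CpG and 58.0% G or C, against 7 CpG and 52.7% over all 32851 windows. Only Hoxb1 and Hoxb4 of cluster B and Hoxc4 of cluster C were among them, so these values describe mainly clusters A and D. Hoxc8 and Hoxc10 had no window.

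Motifs were searched in the same windows on both strands, and a window counted once for each motif whatever else it held. CCAAT was found in 57.1% of the Hox windows and 37.4% of all windows, and TATAAA in 9.52% and 13.6%. TGATTNAT, a composite site of Hox proteins with their Pbx partners, was found in 9.52% and 3.22%, with 2 Hox windows, 1 of Hoxa2 and 1 of Hoxd11. Of the printed windows only that of Hoxd8 held any of these letters, a CCAAT. A match describes the letters of a window and shows no binding.

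The spindle comparison used limma over the 12641 genes that were above the array median on 2 or more arrays, which kept 23 Hox genes (7 each of clusters A, B and C, and 2 of D). The other 10 were not tested because they were low in nearly every line. No Hox gene was called for spindle against non-spindle lines at an adjusted p under 0.05, and 0.0633% of all genes tested were (8 genes). That background became 471 genes without MSC11B, 183 without MSC7A and 179 without MSC12, with 0 Hox genes among them each time. At an unadjusted p under 0.05 the count was 5 of 23 Hox genes, 21.7%, close to the background of 20.7%. The median log2 difference was 0.21 over the 23 Hox genes and 0.04 over all genes, with 16 Hox genes higher and 7 lower in spindle lines.

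The 5 genes with the lowest p lay in clusters C and D, in opposite directions. Hoxc8 had a log2 difference of 2.00 (SE 0.68) and Hoxc4 of 1.36 (SE 0.55), both higher in spindle lines. Hoxc9 had one of 0.62 (SE 0.21), with all 7 spindle lines above the non-spindle median. Hoxd9 had a log2 difference of -1.02 (SE 0.34) and Hoxd8 of -1.57 (SE 0.59), both lower in spindle lines. The lowest limma adjusted p among the Hox genes was 0.129, so none of these differences passed. Without MSC12, MSC11B and MSC7A, the 3 non-spindle lines low in keratinocyte markers, 2 of 23 Hox genes passed in limma. They were Hoxc8 (2.21, limma adjusted p = 0.0433) and Hoxc4 (1.59, limma adjusted p = 0.0493). In all, 1954 of the 12641 genes tested passed there, a larger share than that of the Hox genes. MSC11B, left out here, had the highest non-spindle values of both genes (6.22 for Hoxc8 and 8.15 for Hoxc4).

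Hox differences from the keratinocyte lines rest on only 2 keratinocyte arrays. For non-spindle against keratinocyte lines 0 of 23 Hox genes were called, against 2.02% of all genes, and for spindle against keratinocyte lines 0 of 23, against 5.35%. At an unadjusted p under 0.05 there was 1 Hox gene of 23 (4.35%) in each comparison, against backgrounds of 12% and 20.7%. It was Hoxc13 in both, with a log2 difference of -2.04 (SE 0.68, limma adjusted p = 0.155) in non-spindle lines and of -2.09 (SE 0.71, limma adjusted p = 0.092) in spindle lines. Both comparisons share the keratinocyte lines. Without C5N the differences shrank to -1.26 in non-spindle lines (limma adjusted p = 0.782) and -1.31 in spindle lines (limma adjusted p = 0.539). Without MSC12 alone, the non-spindle difference in Hoxc13 was -2.24 (limma adjusted p = 0.0435). Without MSC12, MSC11B and MSC7A both differences passed, at -2.36 (limma adjusted p = 0.0283) and -2.09 (limma adjusted p = 0.0245). With the lines of unclear label placed by their cell type, the spindle difference was -1.90 (limma adjusted p = 0.0488).

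**Figure D3:**
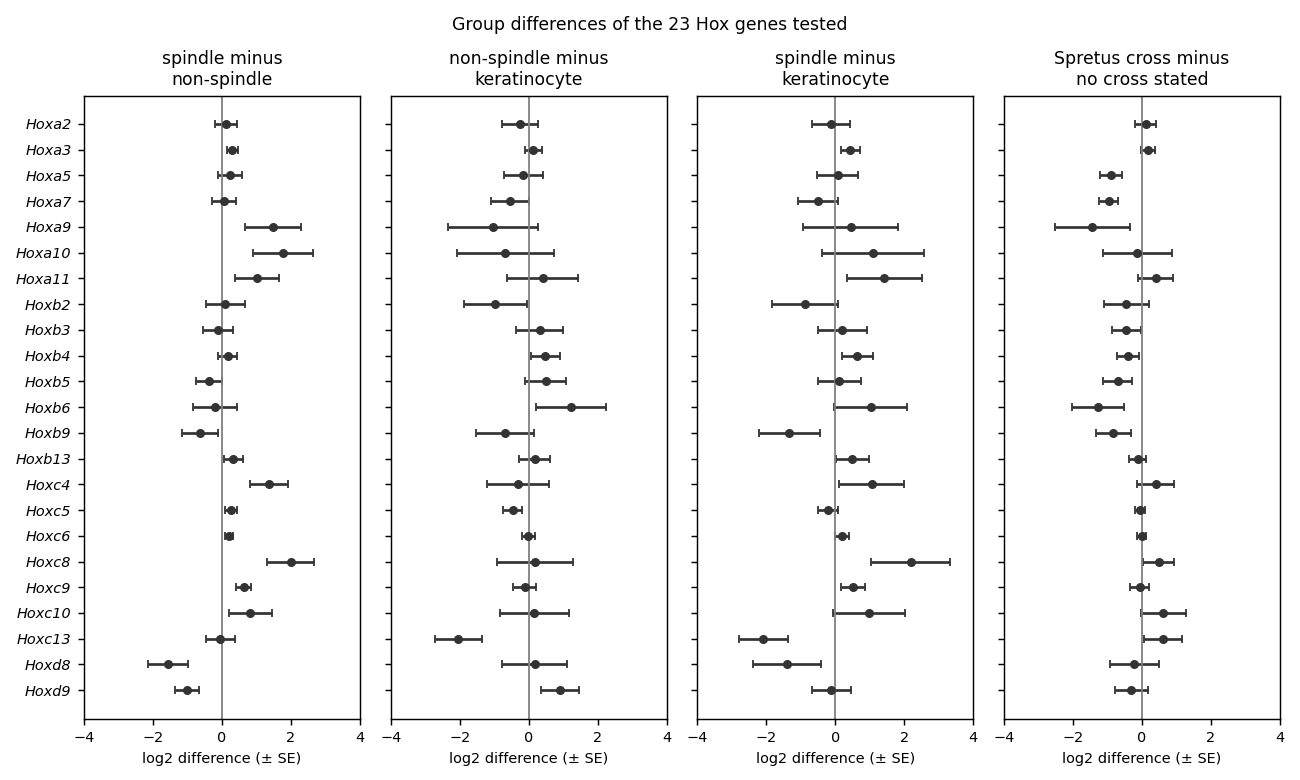
Log2 differences (points) with limma standard errors (bars) of the 23 Hox genes tested, in 4 comparisons of groups of lines. None passed an adjusted p under 0.05, and Hoxc8 (2.00) and Hoxd8 (-1.57) have opposite signs in the spindle against non-spindle panel.

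The cross was compared within the 12 non-spindle lines, 6 Spretus-cross against 6 with no cross stated. No gene of any kind was called (0% of 12641), and 2 of 23 Hox genes (8.70%) against 10.9% of all genes had an unadjusted p under 0.05. These were a pair in cluster A. Hoxa7 averaged 7.18 ± 0.48 in Spretus-cross lines and 8.14 ± 0.52 in the others (SD, n = 6 each), a log2 difference of -0.96 (SE 0.28). Hoxa5 averaged 7.70 ± 0.47 in Spretus-cross lines and 8.59 ± 0.69 in the others, a log2 difference of -0.89 (SE 0.32). The limma adjusted p was 0.417, so neither passed. Apart from E4, the lines with no cross stated share the name stem B9 or PDV. MSCP1, on the Spretus side, lay close to PDV and B9ras over all genes. The 6 lines of a side may therefore not be independent. The highest line of all for both genes was MSCb1 (9.72 and 11.44), a Spretus/CBA line in no group. The Spretus-cross lines include the 3 that were low in keratinocyte markers. Without those 3 lines, no Hox gene was called either. With the lines of unclear label placed by their cell type, the log2 difference was -0.11 for Hoxa5 (limma adjusted p = 0.965) and -0.43 for Hoxa7 (limma adjusted p = 0.757). Without MSCP1, limma called 163 genes and still no Hox gene, with an adjusted p of 0.0796 for Hoxa7. With MSCP1 left out and PDV and B9ras averaged as close arrays, limma called 8 genes, none of them a Hox gene.

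The labels give origin only through line names, so 9 lines were set into 4 name families, D3 (D3 and D3DP), Car (CarB and CarC), B9 (B9, B9ras and B9rassmad) and PDV (PDV and PDVC57). The labels do not say that lines of a family share a tumour. Over all genes tested, r was 0.58 for D3 with D3DP, 0.67 for CarC with CarB and 0.53 for PDV with PDVC57. In the B9 family it was 0.31 for B9 with B9ras, 0.16 for B9ras with B9rassmad and -0.11 for B9 with B9rassmad. B9ras had 0.83 with PDV, so the B9 name does not mark arrays that are alike. A moderated F test called 3 of 23 Hox genes (13%), against 7.33% of all genes, and 9 of 23 (39.1%) against 27.8% at an unadjusted p under 0.05. The median range of the family means was 1.23 log2 units in Hox genes and 0.85 in all genes. In the same test 4 of 8 keratinocyte markers (50%) and 5 of 8 fibroblast markers (62.5%) were called, and their part in the Hox calls was not tested. D3 and Car are spindle families and B9 and PDV are not, so a difference between the first pair and the second cannot be told apart from spindle state.

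Among these 9 lines, the 3 genes called were highest in different families. Hoxa11 was at 7.76 in D3 and 6.23 in D3DP, and at 3.57 to 4.63 in the 7 lines of the other families (limma adjusted p = 0.0209). Hoxc8 was at 9.55 in CarC and 7.60 in CarB, at 3.52 in D3 and 6.06 in D3DP, and at 3.16 to 3.54 in the B9 and PDV lines (limma adjusted p = 0.027). The D3 family spanned both sides of the array median for Hoxc8. Hoxd9 was at 6.70 in D3 and 6.60 in D3DP, at 5.95 in CarC and 5.93 in CarB, at 8.63, 7.62 and 8.36 in B9, B9ras and B9rassmad, and at 7.35 in PDV and 7.04 in PDVC57 (limma adjusted p = 0.0224). For that gene the families did not overlap. Lines outside the families reached similar levels, with Hoxd9 at 8.24 in MSC7A and 8.12 in MSC12 and Hoxa11 at 8.04 in MSN2. The calls rest on few lines. Without PDV or without PDVC57 no Hox gene passed, without D3 Hoxc8 alone passed, and without CarC Hoxc4 alone, which is none of the 3. Without D3DP Hoxa11 and Hoxc8 passed but not Hoxd9, and without B9ras Hoxa11 and Hoxd9 passed with Hoxa10 but not Hoxc8. Without CarB 5 passed, Hoxa11 and Hoxc8 with Hoxb6, Hoxc4 and Hoxd8, and Hoxd9 did not. With PDV and B9ras left out as close arrays, Hoxd9 alone passed (limma adjusted p = 0.0414).

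**Figure D4:**
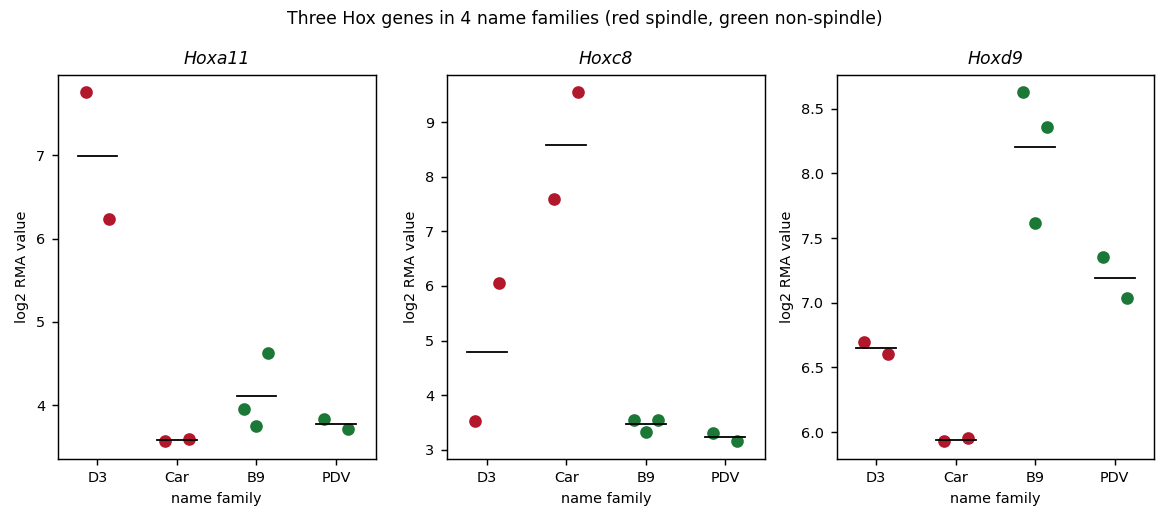
Log2 RMA values of Hoxa11, Hoxc8 and Hoxd9 in the lines of 4 name families, with a bar at each family mean and spindle lines in red. Hoxa11 is high in the D3 family (6.23 and 7.76), Hoxc8 in the Car family (7.60 and 9.55) and Hoxd9 in the B9 family (7.62 to 8.63).

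Lines of a family still differed from each other. CarB was above CarC in Hoxd8 (8.04 and 5.26), Hoxb9 (8.50 and 5.79), Hoxb6 (10.01 and 7.31) and Hoxb5 (6.59 and 4.37), and below it in Hoxc4 (7.01 and 9.32). These were the 5 tested Hox genes that lay over 2 log2 units apart in that pair. D3DP was above D3 in Hoxc8 (6.06 and 3.52) and Hoxc10 (5.95 and 3.90) and below it in Hoxa11 (6.23 and 7.76). B9ras was far below B9 in Hoxa10 (3.60 and 6.66), with B9rassmad at 6.58. Each of these values is a single array.

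Likeness of lines over the 23 Hox genes was measured by Pearson's r on gene-centred values, as a description. The 9 pairs of lines within a family, B9Smad included, had r of 0.09 to 0.88 (median 0.49), and the other 316 pairs -0.73 to 0.98 (median -0.09). Across the 325 pairs, which share lines and so are not independent, the Hox r and the r over all genes correlated at 0.46. The line nearest by Hox genes was also the nearest by all genes for 6 of 26 lines. For 5 of 7 spindle lines the nearest by Hox was a spindle line, and for 6 of 12 non-spindle lines a non-spindle line. The 5 were D3, nearest to D3DP, and the pairs CarB with CarC and A5 with H11. The 6 lay among the B9 and PDV families and MSCP1. All are lines of a family or close arrays, so these counts cannot be read as likeness by spindle state.

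One line was like a spindle pair in its Hox profile and not over all genes. SN161, a non-spindle Spretus/NIH line, had a Hox r of 0.87 with the spindle line A5 and 0.84 with H11, while the r over all genes was 0.03 and -0.01. E4, non-spindle with no cross stated, had a Hox r of 0.91 with A5, 0.89 with H11 and 0.86 with SN161, and r over all genes of 0.40, 0.32 and 0.52. E4 and SN161 were also each other's nearest line over all genes. These 4 lines were the low ones in Hoxb2, and they were also low in Hoxd8. MSC11B was nearest to the spindle lines MSN2 (0.86) and D3DP (0.84), here with r over all genes of 0.68 and 0.64. PDV, B9ras, MSCP1 and PDVC57 formed another like set, at 0.85 to 0.93, among them the 3 close arrays named above.

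**Figure D5:**
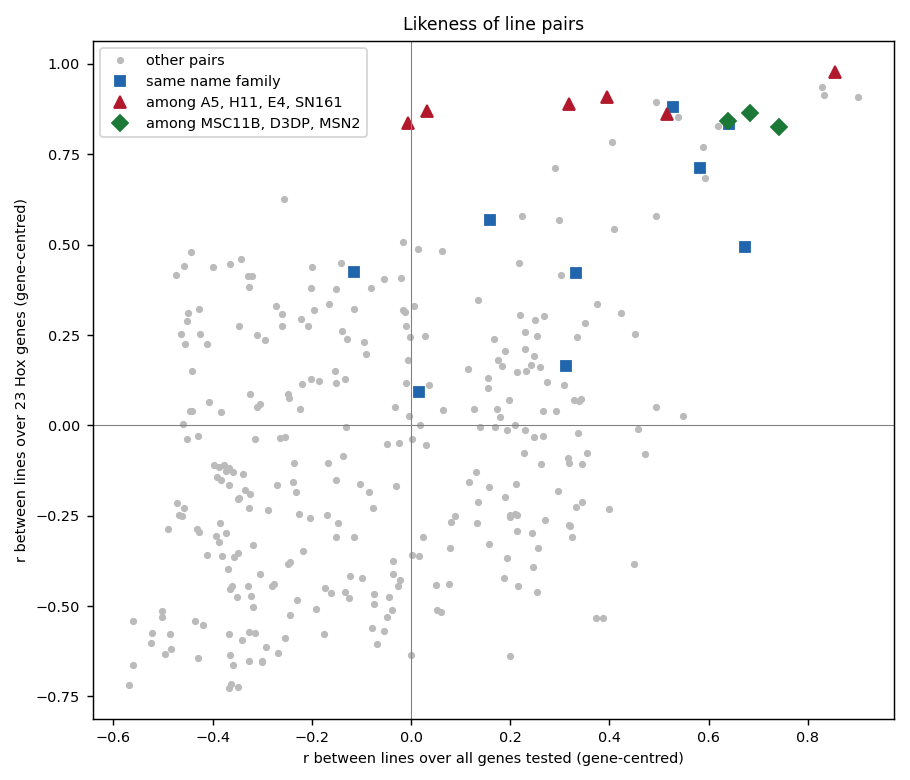
Each point is a pair of lines, with r over all 12641 genes tested on the x axis and r over 23 Hox genes on the y axis, both gene-centred. The pairs among A5, H11, E4 and SN161 (triangles, picked after their values were seen) lie at the top from -0.01 to 0.85 on the x axis.

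Correlations between Hox genes were higher within a cluster than between paralogues, as a description without a test. Over the 26 lines, which include related and close arrays, the median r was 0.60 for 19 pairs of neighbouring tested members, 0.44 for 45 other pairs of a cluster, 0.03 for 16 pairs of paralogues and 0.15 for 173 other pairs. Hoxb5 and Hoxb6 had the highest r (0.89), and Hoxd8 and Hoxd9 had 0.80. Between clusters the highest was Hoxa11 with Hoxc10 (0.81), the pair carried by MSN2, MSC11B and D3DP. In cluster C, Hoxc4 and Hoxc8 had 0.81 although other members lie between them. The paralogues Hoxa10 and Hoxc10 (0.66) had the highest r among paralogues, and 8 of the 16 paralogue pairs were below 0.

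Probe sets of a gene did not always tell the same story, and 11 of the 33 members had several. For Hoxc6, a gene of the upper trunk, the probe set used was flat, at 5.64 to 6.83. Its other probe sets spanned 4.82 to 8.24 and 4.28 to 8.13, both highest in CarC, with CarB (7.81 and 7.96), MSCb1 (7.48 and 7.19) and D3DP (7.10 and 7.07) following. Hoxc5 was similar, with a range of 1.47 in the probe set used and of 3.65 and 2.89 in the others, which were highest in NK. When the probe set with the largest SD was used instead, Hoxc5 (limma adjusted p = 0.00556) and Hoxc6 (limma adjusted p = 0.0273) joined the genes that differed among name families. The probe sets of Hoxa5, Hoxb3, Hoxb4 and Hoxd8 were alike in their pattern over the lines (r of 0.91 to 0.95), and those of Hoxd13 were not (0.13). Hoxa3 had r of -0.14, 0.36 and 0.54 with its other probe sets. The first and second of these were above the median in no line and the third in 22. Its place among the genes above the median everywhere thus rests on the probe set used. The same holds for Hoxb4 (above it in 16 lines by its other probe set), Hoxd8 (25 lines) and Hoxc6 (21 and 15 lines).

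Genes that work with or on Hox genes were read from lists. Hox proteins bind DNA with the Pbx, Meis and Pknox cofactors, and of 8 measured cofactor genes 6 were tested and 0 were called by limma in any comparison. At an unadjusted p under 0.05, which 10.9% to 27.8% of all genes reached by comparison, there were 0 in the 4 group comparisons and 1 of 6 (Meis1) among name families. Pbx2 (6.18 to 8.73), Pbx3 (6.16 to 9.02), Meis2 (6.54 to 9.26) and Pknox1 (6.97 to 8.19) were above the median in all 26 lines, Meis1 (4.84 to 8.01) in 24 and Meis3 (5.01 to 7.34) in 23. Pbx4 and Pknox2 were above it in none. The lines with a high or a low Hox profile thus all had cofactor transcripts above the median.

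Polycomb proteins keep Hox genes silent, and all 20 measured members were tested. Cbx2, a chromatin-binding subunit, was the only one called. That is 1 of 20 (5%), against 2.02% of all genes for non-spindle and 5.35% for spindle against keratinocyte lines. It fell by 1.13 on the log2 scale (SE 0.23, limma adjusted p = 0.00986) in non-spindle lines and by 1.03 (SE 0.24, limma adjusted p = 0.0165) in spindle lines, both against keratinocyte lines, which were at 8.03 in C5N and 8.32 in NK. No other line exceeded 7.45, and the keratinocyte line with conflicting labels was the lowest of all, at 6.27. Of 14 trithorax and H3K27 demethylase genes, which oppose Polycomb, 0 were called by limma in any comparison, with 2 or 3 of 14 at an unadjusted p under 0.05 in each, against the same 10.9% to 27.8% of all genes. Of 12 measured genes that act upstream of Hox genes (Cdx, Evx, Gdf11 and retinoid genes) 6 were tested. In spindle against keratinocyte lines 1 of 6 (16.7%) was called, against 5.35% of all genes. This was Cyp26b1, which degrades retinoic acid, with a fall of 3.33 (SE 0.69, limma adjusted p = 0.008). It was at most 6.84 in spindle lines, against 8.38 in C5N and 9.49 in NK. The keratinocyte line with conflicting labels was at 6.55, within the spindle range. Cdx1, Cdx2 and Cdx4, direct activators of Hox genes in the embryo, were above the median in no line.

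A few other transcription factors differed among name families. In the list of inducers 1 of 6 (16.7%) did, against 7.33% of all genes. This was Rarb, a retinoic acid receptor (range of family means 4.21, limma adjusted p = 0.00696). It was at 8.51 in CarC and 6.85 in CarB and at most 3.94 in the other families. Outside the families it was also above the median in MSN2 (5.92), MSC11B (5.90), H11 (5.69) and MSC7A (5.47). Of 13 tested positional factors outside the Hox clusters, 2 were called there (15.4%, against 7.33% of all genes). Tbx18, a T-box factor of mesenchyme, was at 7.76 in CarC and 8.52 in CarB. It was not particular to that family, with 9.04 in MSC7A, 8.34 in MSC12, 7.84 in MSC11B, 7.82 in MSCP5 and 7.25 in NK. Lhx2, a factor of hair follicle stem cells, was at 7.44 in D3 and 6.09 in D3DP, and next at 5.75 in MSN2 and 5.74 in H11. In the 4 group comparisons limma called 0 of the 13, with 0 to 3 at an unadjusted p under 0.05. The keratinocyte markers Cdh1, Epcam and Krt14 fell in spindle against keratinocyte lines by 8.15, 8.13 and 9.68 (limma adjusted p of 0.0298, 0.0243 and 0.0282), and 0 of the 8 fibroblast markers tested were called there, with 3 at an unadjusted p under 0.05.

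Genes outside the set that were most like it were found by Pearson's r over the 26 lines, against the mean of the members that were above the median in 5 to 21 lines. For cluster C (Hoxc4, Hoxc5, Hoxc8 and Hoxc13) they were Cyb5a (0.82), Dkk3 (0.82), Cyp2d22 (0.81), Maf (0.81) and Mr1 (0.80). For cluster A (Hoxa2 and Hoxa10) they were Vps11 (0.82), Mapk8ip1 (0.81), Atp5l (0.79), Cox7a2 (0.78) and Slc7a6os (0.78). For cluster B (Hoxb5, Hoxb9 and Hoxb13) they were Ybx3 and Cmip (both 0.67), Srsf4 (0.66), Kifc5b and Dexi (both 0.64). Cluster D had no member in that range. These values are descriptions over lines that share families.

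The lines in no group were read one by one. MSCb1 had 19 Hox genes above the median and the highest values of all lines for Hoxa3 (6.75), Hoxa5 (11.44), Hoxa7 (9.72) and Hoxa10 (9.09). 2945CA had 12, and its nearest line by Hox was MSC7A (0.71), with which it shared the low Hoxa9 of the probe set used. B9Smad had 17 and was nearest to B9ras (0.83). The keratinocyte line with conflicting labels had 16 and was nearest to MSC12 (0.45). The papilloma line P6 had 19, with Hoxa7 at 9.14, Hoxb5 at 6.58 and Hoxc13 at 6.86, and its highest r was only 0.35, with PDVC57.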

How the data were processed

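Transcript levels of 26 mouse skin cell lines were read from the authors' deposited series table of log2 values, for which the submitters' processing notes name RMA. That method includes background correction and quantile normalisation, so distributions are forced alike and low values are compressed. No version, software or genome build was given in the sources used here. Of 45037 probe sets, 34945 had a single gene symbol in the platform annotation.

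Each gene took its probe set with the highest mean (18193 genes). Genes above the array median on 2 or more arrays were tested (12641). In R 4.3.3, limma 3.58.1 (lmFit, then eBayes) fitted the 3 groups together in 21 lines, the cross within 12 lines and name families as a moderated F test over 9 lines, with Benjamini-Hochberg adjustment at 0.05. Fits were tested on simulated data. A line entered a group only where its label and flags agreed, and replicate numbers, given in order of deposition, pair nothing. Alternatives changed the filter, probe set, variance model, families and lines. The number of arrays limits precision.

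The members and lists were chosen with earlier results of these data known. All Hox genes and cofactors could be named, up to 5 called members of each other list, the markers Cdh1, Epcam, Vim and Krt14, and up to 5 genes most like each cluster. Promoter windows are RefSeq's, on GRCm38.p6, and were used for sequence only.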

Additional observations from a re-analysis of the deposited data

Results flagged for a closer look

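Within groups of 6 or 7 lines, 12 of 69 sets of values held a line far from the others by Dixon's test at the 95% level. For independent values chance does so in about 1 of 20. Here the sets share lines and correlated genes, so 12 of 69 cannot be set against that rate. Of the 12, 3 were in MSC11B against the other Spretus-cross non-spindle lines, Hoxa11 (6.98, next 3.95), Hoxc8 (6.22, next 3.74) and Hoxc10 (7.61, next 3.62). Another 5 were low values in E4 against the other non-spindle lines with no cross stated, Hoxb2 (4.73, next 7.78), Hoxb3 (5.75, next 7.05), Hoxb5 (4.45, next 5.78), Hoxb6 (6.52, next 8.86) and Hoxd8 (5.88, next 8.07). Every line of that set but E4 carries the name stem B9 or PDV, and PDV and B9ras correlated at 0.83 over all genes. Dixon's test assumes independent values, and the independence of these lines was not tested. The low values in E4 are therefore given as a description only. In the same set of lines Hoxa11 was high in B9rassmad (4.63, next 3.96), still under its array median, and Hoxc13 in B9 (5.88, next 4.74). Among spindle lines Hoxb9 was high in CarB (8.50, next 5.79) and Hoxc5 in CarC (5.99, next 5.24).

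MSCb1, which is in no comparison, exceeded all 21 lines of the fits in 4 genes of cluster A, Hoxa3 (6.75, next 6.66), Hoxa5 (11.44, next 9.61), Hoxa7 (9.72, next 9.49) and Hoxa10 (9.09, next 8.92). It has a single array, so no error can be given.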

How the results depend on the processing

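The 9 signed differences of named Hox genes (Hoxc4, Hoxc8, Hoxc9, Hoxd8 and Hoxd9 by spindle state, Hoxc13 in both keratinocyte comparisons, and Hoxa5 and Hoxa7 by cross) kept their sign under every alternative run. Without MSC12, MSC11B and MSC7A, limma called 2 of 23 Hox genes (Hoxc4 and Hoxc8) for spindle against non-spindle lines. The main comparison called 0, and in this alternative a larger share of all genes passed, as given above. In the same setting 1 Hox gene (Hoxc13) was called in each comparison with keratinocyte lines, against 0 in the main fits. Those main fits called 2.02% (non-spindle) and 5.35% (spindle) of all genes. Without MSC12 alone, limma called 243 of 12641 genes for non-spindle against keratinocyte lines. With lines placed by cell type label it called 1 (Hoxc13) for spindle against keratinocyte lines. The 3 Hox genes that differed among name families became 5 with the mean of all probe sets or with the probe set of largest SD, since Hoxc5 and Hoxc6 were added. The count over all genes moved as well, from 927 in the main fit to 1549 without B9rassmad, where Hox calls stayed at 3. A further alternative, chosen after seeing the data, left out PDV and B9ras as close arrays and so kept only PDVC57 of its family. The range of family means of Hoxd9 was 2.55 there. Leaving out 1 line gave 0 to 5 for name families, and 0 to 1 for non-spindle against keratinocyte lines, with 1 only without MSC12. With the 75th percentile of the array as the level, the median number of Hox genes above it was 6 in spindle and 6 in non-spindle lines. Otherwise the cause was not tested. A family left with 1 line is assumed to vary like the others. Over the alternatives the limma adjusted p spanned 0.0433 to 0.501 for Hoxc8 and 0.0647 to 0.501 for Hoxd9 (spindle against non-spindle), 0.0245 to 0.539 for Hoxc13 (spindle against keratinocyte), and among families 0.00926 to 0.114 for Hoxa11, 0.0102 to 0.157 for Hoxc8 and 0.00865 to 0.0945 for Hoxd9. Values near the low end of the array are background, so differences between low genes are compressed, and 1 array per line leaves the spread within a line unknown.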
